A study of Rattus norvegicus with 29 samples.

Results

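The respiratory chain and ATP synthase were followed across 3 ages of the rat hippocampus through every probe set of the array whose single annotated gene symbol begins with Nduf, Sdha to Sdhd, Uqcr, Cox4 to Cox8 or Atp5, or is Cyc1 or Cycs. The rule found 102 of the 8740 probe sets that are not controls, and they stand for 56 genes. Complex I had 49 probe sets for 27 genes, complex II had 2 for 2 genes, complex III had 7 for 4 genes, complex IV had 27 for 13 genes and complex V, the ATP synthase, had 17 for 10 genes. Cycs, the gene of cytochrome c, had no probe set under the rule, and 7 further probe sets with several symbols were left out. The symbols also bring in genes whose products are not subunits, and these are counted with the complex of their symbol. Among them are the assembly factors Ndufaf3 and Sdhaf2, the supercomplex assembly factor Cox7a2l and the ATP synthase inhibitor Atp5if1. The pseudogene Cox6c-ps1 and the subunit homologue Ndufa4l2 are further ones.

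The complexes sit in the inner mitochondrial membrane. Complexes I and II take electrons from NADH and succinate, complex III hands them on through cytochrome c to complex IV, which reduces oxygen, and complexes I, III and IV move protons across the membrane as they do so. Complex V uses the returning protons to make ATP, on which neurons depend for ion pumping and synaptic transmission. Most subunits are encoded in the nucleus and imported, a few are encoded in mitochondrial DNA, and several complex IV subunits exist as pairs of isoforms with one form typical of heart and skeletal muscle.

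CA1 tissue of the hippocampus, a region needed for spatial memory, was taken from male Fischer rats aged 4, 14 and 24 months, called young, mid-aged and aged. All rats had been trained one after the other on the tasks labelled SWM and OMT over 7 days, and the tissue was collected 24 hours after that sequence, so no untrained group is part of the comparison. Total RNA was measured on an Affymetrix rat expression array, with 9 young, 10 mid-aged and 10 aged arrays. The labels do not say that each array is a separate rat, so the p-values measure the spread between these arrays. The tissue is a mixture of cells, and fewer cells of a type cannot be told apart from less RNA per cell.

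Values are the deposited Signal of each probe set, scaled to a common trimmed mean over the arrays, floored at 161, the median signal of calls of absent, and taken as log2; a difference between ages understates that of a gene near the floor. Probe sets with a present call on 9 or more of the 29 arrays were kept, which left 3861 probe sets, 79 of them members for 51 genes. Tests used limma with Benjamini-Hochberg adjustment over all 3861 and a threshold of 0.05. Present calls covered 35.6% to 46.5% of the probe sets, depending on the array. The headers of the deposited columns come in 2 styles, one with the tissue name in it and one without; the style with the tissue name, called the longer style here, was found on 4 of the 9 arrays at 4 months, on 6 of the 10 at 14 months and on all 10 at 24 months, and the labels do not say what it stands for. The 6 arrays that correlated least with the rest were 1 young, 2 mid-aged and 3 aged arrays. All 13 neuronal markers with a probe set were kept.

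Of the 79 kept member probe sets, 72 were called present on all 29 arrays. The 23 that were left out stood for 14 genes, and 5 genes had no kept probe set at all. Among these, Cox6a2 and Cox8b, the forms of complex IV subunits found in heart and skeletal muscle, were called present on 0 of 29 arrays with 3 and 2 probe sets. Cox4i2, the isoform best known from lung, was called present on 2 arrays. The ubiquitous partners Cox6a1, Cox8a and Cox4i1 were kept with 3, 4 and 3 probe sets. Ndufa4l2 was called present on 0 of 29 arrays with each of its 5 probe sets. The kept member with the fewest calls was a Ndufa6 probe set, present on 10 arrays, and the left-out member with the most was a Cox6c probe set, present on 6.

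The promoters of 3 members are shown because these genes carry the lowest p, a call without the least correlated arrays, and a pair of probe sets that point opposite ways in the results that follow. They are RefSeq sequences of the build GRCr8, the 150 bases before the annotated start, written 5′ to 3′ on the gene's strand at chr9:113157521-113157670 (minus) for Ndufv2, chr11:44657484-44657633 (minus) for Atp5po and chr9:46417687-46417836 (plus) for Cox5b. Capitals mark a match to the motif of NRF1, which was searched as GCGCA and GCGC with 1 base of any kind between them, or to CCGGAAG, an ETS motif bound by GABPA; both were searched on either strand, and the Ndufv2 stretch holds no match. NRF1 and GABPA are transcription factors known for driving nuclear genes of the respiratory chain.
Ndufv2: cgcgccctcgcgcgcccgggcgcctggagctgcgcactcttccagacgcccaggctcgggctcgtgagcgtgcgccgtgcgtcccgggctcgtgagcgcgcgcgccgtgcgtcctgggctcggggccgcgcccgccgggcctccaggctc
Atp5po: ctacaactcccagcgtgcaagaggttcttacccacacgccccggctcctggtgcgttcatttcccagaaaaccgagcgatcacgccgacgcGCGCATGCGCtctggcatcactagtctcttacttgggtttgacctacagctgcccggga
Cox5b: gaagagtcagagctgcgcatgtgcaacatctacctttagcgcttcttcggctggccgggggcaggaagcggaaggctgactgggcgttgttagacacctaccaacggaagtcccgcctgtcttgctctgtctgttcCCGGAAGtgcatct
Promoter windows were found for 47 of the 56 member genes. In windows of 300 bases around the start, 6 of the 47 (12.8%) held the NRF1 motif, against 4.25% of all 33469 windows, and 10 of the 47 (21.3%) held the GABPA motif, against 8.75% of all. The 33469 windows were not limited to genes of the array or reduced to a single window per gene, as those of the members were. The shares therefore come from unlike sets, and the difference was not tested. No member promoter held both. The NRF1 motif was found for Atp5f1c, Atp5po, Ndufa5, Ndufs6, Ndufv3 and Sdha. The GABPA motif was found for Atp5f1a, Atp5pf, Cox4i1, Cox5b, Cox8a, Ndufa6, Ndufs1, Ndufs8, Sdhaf2 and Uqcrc2. A match is a description of the letters, and its absence says only that they are not in the window.

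Between aged and young arrays, 0 of the 79 member probe sets passed the threshold, where 1.66% of all 3861 did. At an unadjusted p under 0.05 there were 13 members (16.5%), close to the 14.2% of all kept probe sets. Of the 79 members, 11 (13.9%) were lower in aged arrays at that level, where 7.3% of all probe sets were, and 2 (2.53%) were higher, where 6.89% of all were. This split depended on the scaling: with arrays scaled to a common median of all probe sets, 3 members were lower, where 3.78% of all were, and 3 higher, where 7.85% of all were. With arrays of the longer header style alone, 6 members were lower, where 5.05% of all were, and 0 higher, where 5.78% of all were. The log2 difference was below 0 for 56 of the 79 members, against 53.6% of all, and its median over the members was -0.07 against -0.02 over all. Under the scaling to a common median, 49 of the 79 were below 0, against 46.1% of all, with a median of -0.03 against 0.02. The 95% interval of a single member had a median half-width of 0.22 on the log2 scale. It lay within 1.5-fold in either direction for 69 of the 79, against 84.6% of all. No member's aged values lay wholly below or wholly above its young values, where 0.0259% and 0.337% of all probe sets did.

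The count of members past the threshold depended on how the arrays were weighted. With array weights, which give less weight to arrays far from the fitted values, 11 of the 79 members (13.9%) passed between aged and young arrays, against 8.44% of all probe sets. Each was 1 probe set of its gene: Ndufa9, Ndufv2, Ndufa8, Ndufab1 and Ndufb6 of complex I, Uqcrc2 and Uqcrfs1 of complex III and Atp5po were lower in aged arrays, and Cox6a1, Cox5b and Atp5f1e were higher. With the Gapdh ratio, described at the end, as a covariate, Ndufa9 and Ndufv2 passed, where 2.54% of all did. With the floor at the 75th percentile of absent signals, Uqcrfs1 passed, where 1.99% of all did. Without the 6 least correlated arrays Ndufa9, Atp5po and Cox6a1 passed, where 3.39% of all did.

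**Figure D1:**
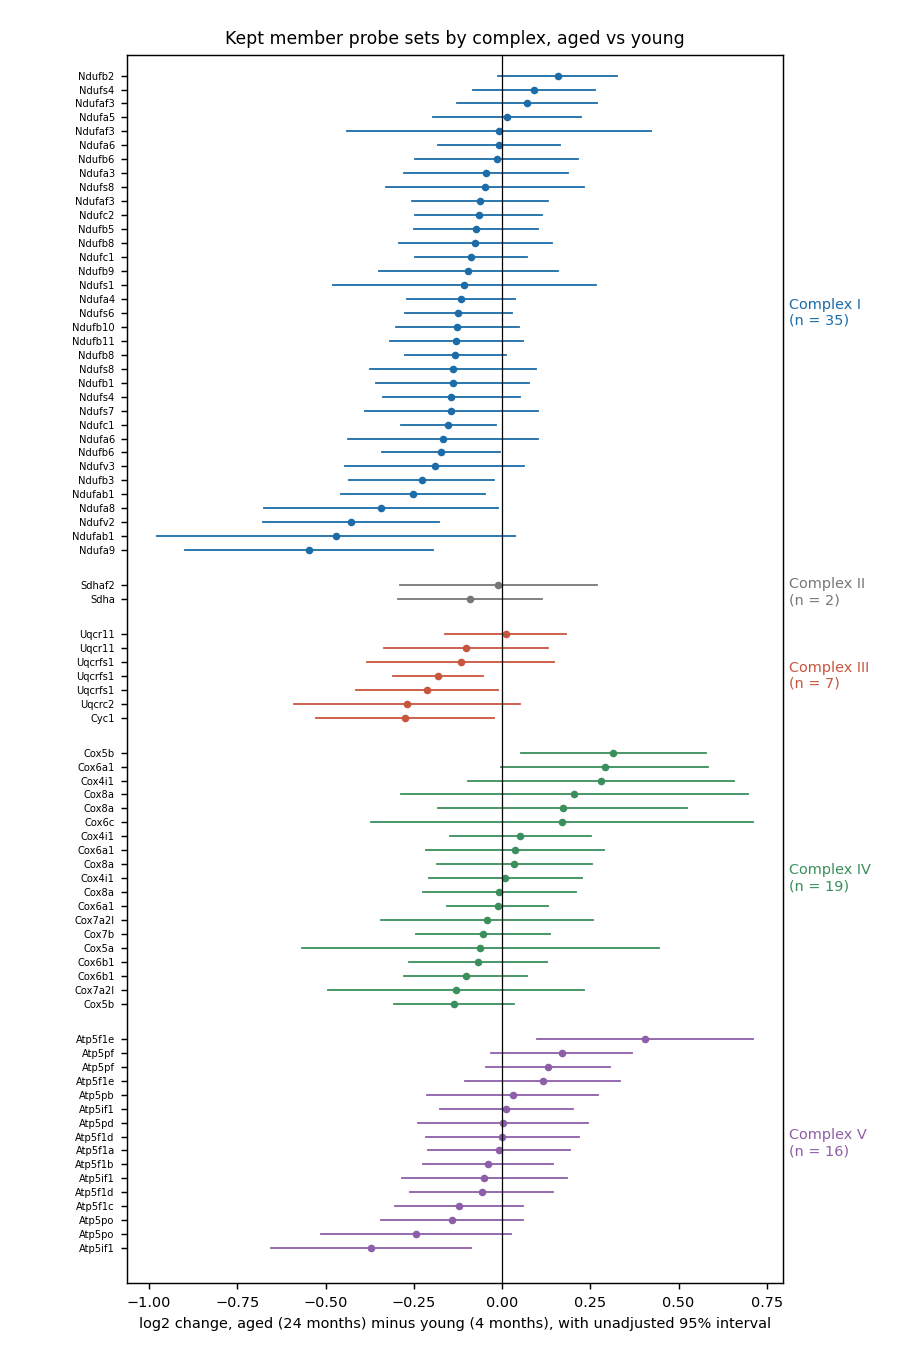
Log2 difference of each kept member probe set, aged (24 months) minus young (4 months), with its unadjusted 95% interval, grouped by complex and ordered within it. In complex I, 31 of 35 points lie left of 0 and in complex III 6 of 7, while complex IV has 9 of 19 and complex V 8 of 16 on that side.

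The counts by complex stand beside 53.6% of all kept probe sets below 0 and 7.3% lower at an unadjusted p under 0.05. In complex I, 31 of 35 probe sets had a log2 difference below 0 between aged and young arrays, with a median of -0.12, and 7 of them, all lower, had an unadjusted p under 0.05. In complex III, 6 of 7 were below 0, with a median of -0.18 and 3 at an unadjusted p under 0.05. Complex IV had 9 of 19 below 0 and a median of 0.01, and complex V had 8 of 16 below 0 and a median of -0.004. Complex II was represented by Sdha, its flavoprotein, and Sdhaf2, with log2 differences of -0.09 and -0.01. Their median ran from -0.22 to -0.01 over the alternatives other than leaving out 1 array at a time. Sdha averaged 12.35 on aged arrays, and 12.59 and 12.32 on young arrays of the longer and the shorter header style. Sdhaf2 averaged 11.225 on aged arrays, and 11.423 and 11.087 on these young arrays. No complex had a probe set past the adjusted threshold, and whether the complexes differ from each other was not tested.

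Averaged over its 35 probe sets and set relative to the mean of the young arrays, complex I lay between -0.13 and 0.08 on the 9 young arrays, with a median of 0.02, between -0.20 and 0.06 on the 10 mid-aged arrays, with a median of -0.02, and between -0.24 and 0.02 on the 10 aged arrays, with a median of -0.15. Of the 10 aged arrays, 9 lay below the median young array and 6 below every young array, so the ages overlapped. Complex III lay between -0.12 and 0.09 on the young arrays, between -0.33 and -0.03 on the mid-aged and between -0.30 and 0.02 on the aged. For complex III, 7 of 10 mid-aged and 7 of 10 aged arrays were below every young array. Complex IV lay between -0.23 and 0.25 on the young arrays, between -0.19 and 0.22 on the mid-aged and between -0.12 and 0.36 on the aged, and 5 of 10 aged arrays lay below the median young array and 0 below every young array. Complex V lay between -0.07 and 0.18 on the young arrays, between -0.29 and 0.20 on the mid-aged and between -0.19 and 0.17 on the aged. For complex V, 4 of 10 mid-aged and 3 of 10 aged arrays were below every young array, and 5 of 10 aged arrays were below the median one.

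**Figure D2:**
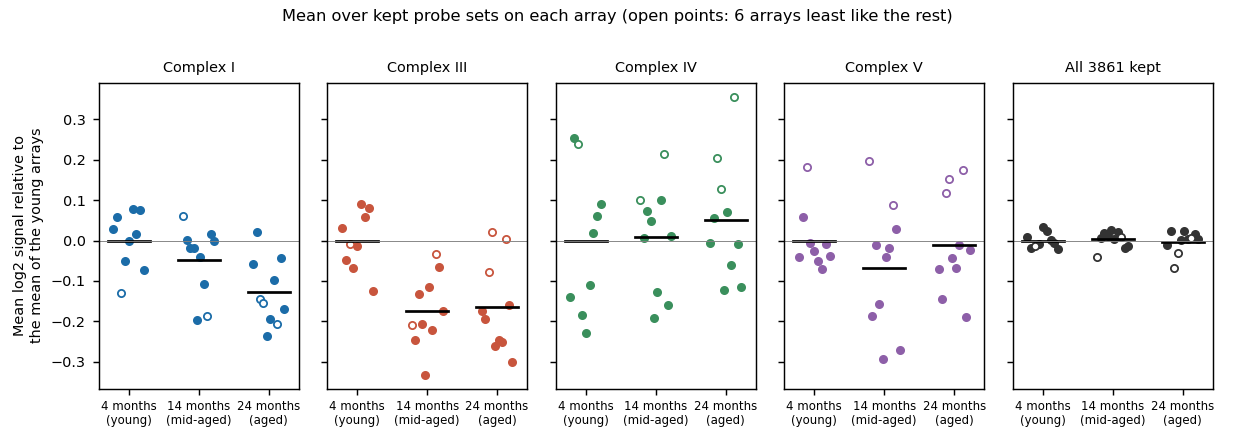
Mean log2 signal over the kept probe sets of complexes I, III, IV and V and over all 3861 kept probe sets, one point per array, relative to the mean of the young arrays; ages run from 4 to 24 months, black lines are means over arrays and open points are the 6 arrays least like the rest. The aged mean for complex I is -0.13, the mid-aged and aged means for complex III are -0.17 and -0.16, and for all probe sets the means stay between -0.004 and 0.003. The arrays had been scaled to a common trimmed mean over all probe sets, so the means for all probe sets are no independent reference.

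Header style and the least correlated arrays moved with some of these values. Young arrays with the tissue name in the header had complex I means from -0.13 to 0.06, and the 5 young arrays without it had means from -0.0002 to 0.08. With arrays of the longer header style alone, 10 aged against 4 young, 26 of 35 complex I probe sets were below 0 with a median of -0.07. Of all probe sets, 50.5% were below 0 in that setting. Scaling to a common median of all probe sets, in place of the trimmed mean, gave 28 of 35 and -0.09 for complex I, where 46.1% of all were below 0 and the median of all moved to 0.02. Without the 6 least correlated arrays the values were 27 of 35 and -0.10, against 54.7% of all below 0. Over all members, the least correlated aged arrays had means from -0.01 to 0.04, and the other aged arrays from -0.17 to -0.03. The mid-aged means were -0.005 to 0.07 against -0.22 to -0.01. The least correlated aged arrays, replicates 3, 4 and 8, had the highest aged complex IV means (0.20, 0.13 and 0.36). Their complex I means (-0.15, -0.16 and -0.21) were each below every young array. The complex III median between aged and young was -0.14 with the longer style alone, -0.13 with style as a term and -0.11 in the authors' table. Young arrays had complex III means from -0.12 to -0.01 with the tissue name and from -0.01 to 0.09 without it. Complex IV means of young arrays ran from -0.18 to 0.25 with the tissue name and from -0.23 to 0.06 without it. In complex V the 6 mid-aged arrays with the tissue name averaged -0.003 ± 0.157 and the 4 without it -0.16 ± 0.12 (SD). The part of header style in these differences was not tested further.

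Ndufv2, an iron-sulphur subunit of the NADH-oxidising end of complex I, had the smallest p among the members. Its log2 signal ran from 13.05 to 13.70 with a median of 13.40 on young arrays, from 12.86 to 13.49 with a median of 13.15 on mid-aged arrays and from 12.60 to 13.61 with a median of 12.83 on aged arrays. The ages overlapped, with 8 of 10 aged arrays below the median young array and the other 2, aged replicates 2 and 4, above it. The aged mean was 0.744 times the young mean, a log2 difference of -0.43 ± 0.12 (SE; 95% interval -0.68 to -0.18), with an unadjusted p of 0.00141 and a limma adjusted p of 0.0730. It did not pass the threshold over all 29 arrays. Leaving out aged replicate 2, aged replicate 4 or young replicate 2 gave limma adjusted p of 0.0126, 0.0252 and 0.0388. The log2 differences were -0.50, -0.48 and -0.47, and of all probe sets 2.18%, 1.66% and 1.76% passed then. These aged replicates held the highest aged values and this young replicate the lowest young value, so leaving each out widens the difference. Leaving out any other single array gave no pass. With header style as a term the difference was -0.53 and the limma adjusted p 0.0415, where 1.42% of all passed. Over the alternatives that did not leave out a single array, the difference ran from -0.53 to -0.39. The limma adjusted p then ran from 0.00991 to 0.263.

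Ndufa9, an accessory subunit at the joint between the matrix and membrane arms of complex I, had the largest negative log2 difference of the kept members. Its log2 signal ran from 11.48 to 12.30 with a median of 12.09 on young arrays, from 11.17 to 12.38 with a median of 11.54 on mid-aged arrays and from 10.56 to 12.23 with a median of 11.41 on aged arrays. The ranges overlapped, and 9 of 10 aged and 9 of 10 mid-aged arrays lay below the median young array. The difference between aged and young was -0.55 ± 0.17 (SE), with an unadjusted p of 0.00342 and a limma adjusted p of 0.102. Without the 6 least correlated arrays it was -0.66 with a limma adjusted p of 0.0308. Without aged replicate 2 or aged replicate 4, which held the highest aged values, the limma adjusted p was 0.0477 or 0.0368. Over the alternatives that did not leave out a single array, the difference ran from -0.71 to -0.46. The limma adjusted p then ran from 0.00383 to 0.384.

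The other complex I members at an unadjusted p under 0.05 had smaller differences or larger errors. Ndufa8, a small accessory subunit of the side facing the intermembrane space, had a log2 difference of -0.34 ± 0.16 between aged and young (adjusted p = 0.329, limma). Ndufab1, the mitochondrial acyl carrier protein, was read by 2 kept probe sets with differences of -0.25 ± 0.10 and -0.47 ± 0.25, and 10 of 10 aged arrays lay below the median young array in both; neither passed (adjusted p of 0.231 and 0.394, limma). Ndufb3, Ndufc1 and Ndufb6, accessory subunits of the membrane arm, had differences of -0.23 ± 0.10, -0.15 ± 0.07 and -0.17 ± 0.08. The second kept probe sets of Ndufc1 and Ndufb6 gave -0.09 ± 0.08 and -0.01 ± 0.11. With the longer header style alone, Ndufab1 had -0.07 and -0.20, Ndufb3 had -0.08, Ndufc1 had -0.15 and -0.08, and Ndufb6 had -0.14 and 0.01. Ndufa8 went the other way, to a larger difference. It averaged 13.64 on the aged arrays, all of that style, and 14.13 on the young arrays of that style. The young arrays of the shorter style averaged 13.87.

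The core subunits of complex I that carry its iron-sulphur clusters were measured through Ndufs1, Ndufs7, Ndufs8 and Ndufv2. Ndufs7 and both Ndufs8 probe sets had log2 differences of -0.14, -0.05 and -0.14 between aged and young arrays, and none passed. Ndufs1 was dim and called present on 13 of 29 arrays. Ndufs4, an accessory subunit whose loss causes Leigh syndrome in people, was read by 2 probe sets that pointed opposite ways, at -0.14 and 0.09. Ndufa4, long assigned to complex I and now placed in complex IV, had a difference of -0.12 ± 0.07 between aged and young. The 4 complex I probe sets above 0 were those of Ndufb2 (0.16), Ndufs4 (0.09), Ndufaf3 (0.07) and Ndufa5 (0.01).

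In complex III, Uqcrfs1, the Rieske iron-sulphur protein, had 3 kept probe sets. In the one with the smallest p, the log2 signal ran from 13.56 to 13.82 with a median of 13.70 on young arrays, from 13.37 to 13.79 with a median of 13.49 on mid-aged arrays and from 13.34 to 13.63 with a median of 13.54 on aged arrays. All 10 aged arrays lay below the median young array, and the ranges overlapped at their edges. The difference between aged and young was -0.18 ± 0.06 (SE), with an unadjusted p of 0.00643 and a limma adjusted p of 0.142; between mid-aged and young it was -0.17 ± 0.06, with an adjusted p of 0.260. The other Uqcrfs1 probe sets had -0.21 ± 0.10 and -0.12 ± 0.13 between aged and young.

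Cyc1, the haem subunit of complex III that passes electrons to cytochrome c, ran from 12.80 to 13.83 with a median of 13.45 on young arrays, from 12.93 to 13.40 with a median of 13.20 on mid-aged arrays and from 12.24 to 13.37 with a median of 13.16 on aged arrays. Every mid-aged and aged array lay below the median young array. The difference between aged and young was -0.27 ± 0.12 (SE), with a limma adjusted p of 0.305, and with the longer header style alone it was -0.05. Uqcrc2, a core protein of the complex, had -0.27 ± 0.16 over all arrays (adjusted p = 0.456, limma) and 0.07 with the longer header style alone. Uqcr11, a small subunit, had -0.10 and 0.01 from its 2 probe sets.

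**Figure D3:**
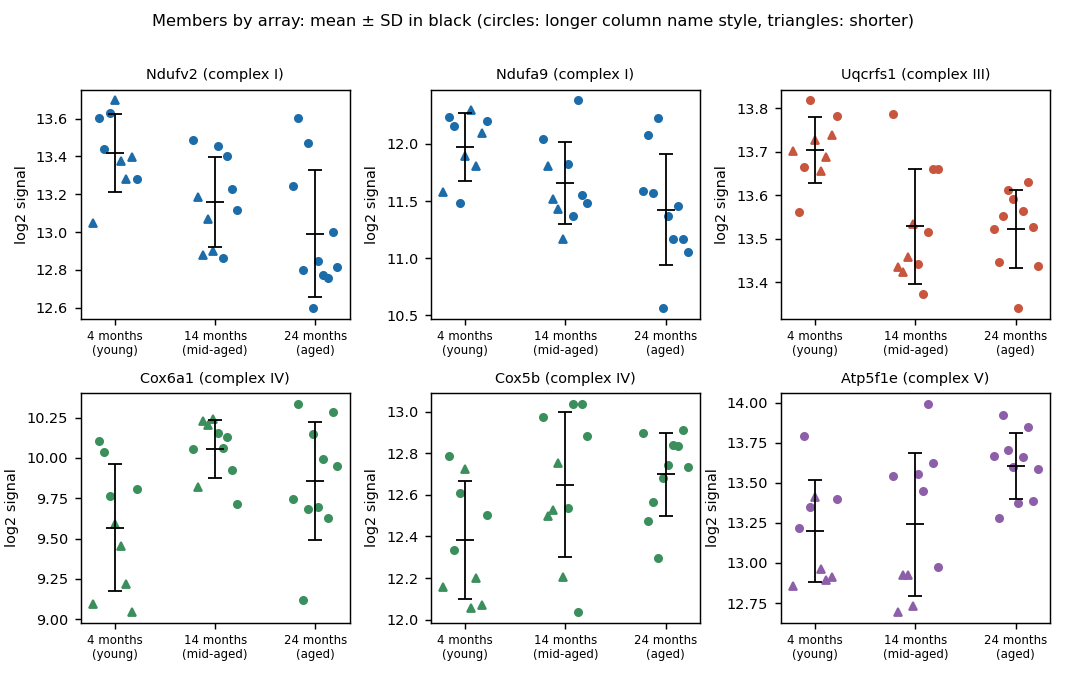
Log2 signal of 6 member probe sets on every array at 4, 14 and 24 months, with mean and SD in black; circles are arrays whose header holds the tissue name, triangles those without it. Ndufv2, Ndufa9 and Uqcrfs1 have lower means at 24 than at 4 months with overlapping ranges, and in the Cox6a1 and Atp5f1e panels the triangles lie mostly below the circles among young arrays.

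In complex IV the only member at an unadjusted p under 0.05 between aged and young arrays was one of the Cox5b probe sets. Cox5b, a nuclear-encoded accessory subunit, ran from 12.05 to 12.78 with a median of 12.33 on young arrays, from 12.04 to 13.04 with a median of 12.64 on mid-aged arrays and from 12.30 to 12.91 with a median of 12.74 on aged arrays. The ages overlapped, and 9 of 10 aged arrays were above the median young array. The difference between aged and young was 0.32 ± 0.13 (SE), with a limma adjusted p of 0.248, while the other Cox5b probe set gave -0.14 ± 0.08. With the longer header style alone these were 0.14 and -0.04.

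Cox4i1, the form of the regulatory subunit found in most tissues, had log2 differences of 0.01, 0.05 and 0.28 from 3 probe sets, and Cox8a, a small membrane subunit, had values from -0.01 to 0.21 from 4. Cox5a, a nuclear-encoded subunit on the matrix side, was dim, present on 16 of 29 arrays, with -0.06 ± 0.25. That value mixes header styles. The 4 young arrays with the tissue name in the header averaged 9.34 and the 5 without it 8.25, with no overlap. The 10 aged arrays, all with the tissue name, averaged 8.67. Cox6b1 and Cox7b, small subunits facing the intermembrane space and the membrane, had values from -0.10 to -0.05. Cox6c had 0.17 ± 0.27. Its highest aged values, 10.07, 9.57 and 10.54, were on the least correlated aged arrays, replicates 3, 4 and 8. It averaged 9.03 on aged arrays, and 9.08 and 8.68 on young arrays of the longer and the shorter header style. None of these passed the threshold, and the 95% interval of Cox6c ran from -0.37 to 0.71.

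In the ATP synthase, the subunits of the catalytic head had log2 differences near 0 between aged and young arrays: Atp5f1a, the alpha subunit, had -0.01 ± 0.10 and Atp5f1b, the beta subunit that holds the catalytic sites, had -0.04 ± 0.09. The central stalk was read through Atp5f1c (gamma, -0.12 ± 0.09), Atp5f1d (delta, -0.06 and 0.001) and Atp5f1e (epsilon). Atp5f1e ran from 12.86 to 13.79 with a median of 13.22 on young arrays, from 12.69 to 13.99 with a median of 13.21 on mid-aged arrays and from 13.28 to 13.92 with a median of 13.63 on aged arrays. All 10 aged arrays were above the median young array, yet the ranges overlapped. The difference between aged and young was 0.40 ± 0.15 (SE), with a limma adjusted p of 0.194, and the second Atp5f1e probe set gave 0.12 ± 0.11.

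The Atp5f1e signal moved with header style. The 5 young arrays without the tissue name in the header had a mean of 13.01 and the 4 with it had 13.44, and the 4 mid-aged arrays without it had 12.82 against 13.52 in the 6 with it. With the longer style alone the difference between aged and young was 0.17 (adjusted p = 0.72, limma), and with style as a term it was 0.09.

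The peripheral stalk of the synthase gave Atp5po, which links the stalk to the head, log2 differences of -0.24 ± 0.13 and -0.14 ± 0.10 from 2 probe sets, and Atp5pf 0.13 ± 0.09 and 0.17 ± 0.10, while Atp5pb and Atp5pd had 0.03 and 0.003. Without the 6 least correlated arrays one Atp5po probe set passed, at -0.40 with a limma adjusted p of 0.0199. Atp5if1, the inhibitor of the synthase, had 0.01 and -0.05 from 2 of its 3 kept probe sets. The remaining one had -0.37 ± 0.14 (adjusted p = 0.199, limma), but its description in the deposited file is that of a pancreatic secretory trypsin inhibitor-like sequence, so its annotation to Atp5if1 is doubtful.

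Several kept probe sets read 21 of the genes, 49 probe sets in all, and the log2 differences between aged and young arrays within a gene spread by 0.03 to 0.45, with a median of 0.13. The signs differed in 8 of the 21: Atp5f1d, Atp5if1, Cox5b, Cox6a1, Cox8a, Ndufaf3, Ndufs4 and Uqcr11.

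**Figure D4:**
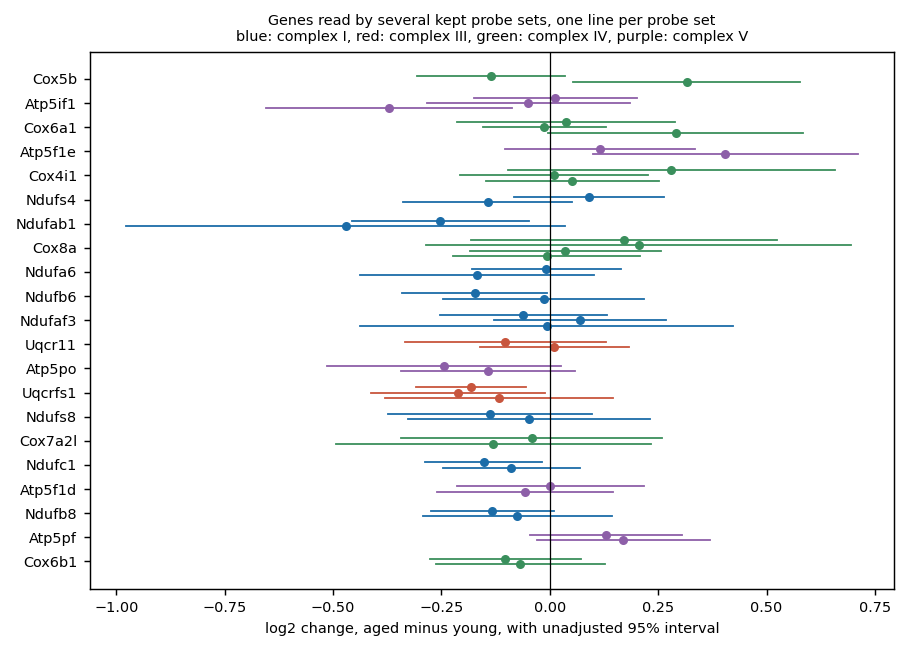
Log2 difference, aged minus young, with unadjusted 95% intervals for the 21 genes with several kept probe sets, one line per probe set, ordered by the spread within a gene. Cox5b, at the top, has one probe set at 0.32 and another at -0.14.

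Between mid-aged and young arrays, 0 of 79 members passed the threshold, where 0.414% of all probe sets did. At an unadjusted p under 0.05 there were 6 members (7.59%) against 11.2% of all, 2 of them higher, where 5.26% of all were, and 4 lower, where 5.91% of all were. The difference was below 0 for 53 of 79, against 54.6% of all, with a median of -0.07 against -0.02. With the longer header style alone, 6 mid-aged against 4 young arrays, 47 of 79 were below 0, against 53.4% of all, and the median was -0.02, against -0.02 over all. By complex the median was -0.04 in complex I, -0.18 in complex III, -0.02 in complex IV and -0.09 in complex V, and all 7 complex III probe sets were below 0. The 4 lower members were Uqcrfs1, Ndufv2 (-0.26 ± 0.12), Ndufa4 (-0.16 ± 0.07) and the doubtful Atp5if1 probe set (-0.31 ± 0.14). This comparison shares the young arrays with the one between aged and young.

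Cox6a1, the form of the subunit found outside muscle, had the smallest p between mid-aged and young. In that probe set the log2 signal ran from 9.04 to 10.10 with a median of 9.59 on young arrays, from 9.72 to 10.24 with a median of 10.09 on mid-aged arrays and from 9.12 to 10.33 with a median of 9.85 on aged arrays. All 10 mid-aged arrays were above the median young array, and the difference between mid-aged and young was 0.49 ± 0.14 (SE), with an unadjusted p of 0.00206 and a limma adjusted p of 0.169. The other Cox6a1 probe sets, far brighter with aged medians of 14.39 and 14.71, gave -0.01 ± 0.07 and -0.10 ± 0.12. The 5 young arrays without the tissue name in the header ran from 9.04 to 9.59 and the 4 with it from 9.76 to 10.10, with no overlap. With the longer style alone the difference between mid-aged and young was 0.08, and with the shorter style alone it was 0.84 (adjusted p = 0.0407, limma; 0.492% of all probe sets passed). It also passed with array weights (0.60, where 2.25% of all passed) and without the 6 least correlated arrays (0.53, where 1.63% of all passed).

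Between aged and mid-aged arrays, 0 of 79 members passed, where 0.0518% of all probe sets did, and 46 of the 79 were below 0, against 50.3% of all. At an unadjusted p under 0.05 there were 6 members (7.59%) against 5.18% of all, 3 higher, where 2.95% of all were, and 3 lower, where 2.23% of all were. The 3 higher were both Atp5f1e probe sets (0.36 ± 0.15 and 0.25 ± 0.10) and Ndufb2 (0.17 ± 0.08). The 3 lower were Cox7a2l, a factor of supercomplex assembly (-0.43 ± 0.17), Ndufs1 (-0.42 ± 0.18) and one Ndufab1 probe set (-0.50 ± 0.24). All 6 had a limma adjusted p of 0.924. The second Cox7a2l probe set gave -0.08 ± 0.14. The median over the 79 members was -0.02, against -0.0008 over all. With arrays scaled to a common median, 34 of the 79 were at or below 0, and the median was 0.01 against 0.03 over all.

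An F test over the 3 ages passed 0 of 79 members, where 1.32% of all probe sets passed, and 7 members (8.86%) had an unadjusted p under 0.05, against 11.2% of all. The means of 27 of the 79 members (34.2%) stood in falling order at 4, 14 and 24 months, against 22.7% of all kept probe sets, and those of 7 (8.86%) stood in rising order, against 17.8%. Ndufv2, Ndufa9 and Cyc1 had means in falling order. These orders were counted with the trimmed mean scaling alone. The F test passed 7 members with array weights, where 5.44% of all passed, Ndufa9 with the Gapdh ratio as a covariate (1.61% of all), Ndufv2 without aged replicate 2 (1.4% of all), and Atp5po and Cox6a1 without the 6 least correlated arrays (2.31% of all).

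Related mitochondrial genes gave no call between aged and young arrays either. Of the subunits encoded in mitochondrial DNA, COX1, COX2 and COX3 of complex IV were measured, with log2 differences of 0.09, 0.23 and 0.19, 0 of 3 past the threshold and 0 at an unadjusted p under 0.05. Their median was 0.19. That of the 9 nuclear-encoded complex IV genes, Cox7a2l among them, read in the same way through the brightest kept probe set of each, was -0.04. Over all 19 kept probe sets of complex IV it was 0.01. Whether mitochondrially and nuclear-encoded genes differ was not tested. The list of pyruvate dehydrogenase, the citrate cycle and linked enzymes had 16 kept genes. Of these, 0 passed, and 2 were higher and 1 lower at an unadjusted p under 0.05. The smallest p was that of Got2, the mitochondrial aspartate aminotransferase, a linked enzyme outside the cycle (-0.23 ± 0.09, adjusted p = 0.231, limma). Of 11 kept membrane carriers, 0 passed and 1 was lower at an unadjusted p under 0.05, Slc25a11, the oxoglutarate carrier (-0.27 ± 0.10). Of 10 import and chaperone genes, 0 passed, 1 was higher and 1 lower at that level, and Pmpca, a subunit of the presequence peptidase, had 0.25 ± 0.12. Of 4 kept antioxidant enzymes, 0 passed and 1 was lower at an unadjusted p under 0.05, Prdx3, a peroxiredoxin (-0.17 ± 0.08). In 3 kept genes of biogenesis and shape and 4 of electron entry and assembly, 0 passed and 0 had an unadjusted p under 0.05; Dnm1l, the fission GTPase, had 0.24 ± 0.13 and Aifm1, needed for complex I, -0.06 ± 0.09.

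Markers of other cells moved between the same arrays. Of 9 microglial and macrophage markers on the array, 5 were kept and 5 of 5 were higher in aged arrays past the threshold, from Ctss, a lysosomal protease (0.39), to Cd74, the invariant chain of class II antigen presentation (1.63); 2 of the 9 were absent on every array. The log2 of their summed signal, in which bright genes weigh most, ran from 14.75 to 15.14 in aged arrays. In young arrays it ran from 14.35 to 14.59, with no overlap. The sums of the other lists are log2 values of the same kind. Of 7 myelin and oligodendrocyte markers, 2 were higher past the threshold, Mag (0.61) and Pmp22 (0.36), and the sum ran from 16.19 to 16.78 in aged and from 16.03 to 16.28 in young arrays. Of 3 kept vessel and blood genes, 2 haemoglobin probe sets were higher past the threshold, Hbb (1.30) and Hbb-b1 (0.93), and the smooth muscle actin Acta2 had -0.45 ± 0.18 (unadjusted p = 0.0188; adjusted p = 0.244, limma), with sums of the 3 from 13.83 to 14.83 in aged and from 12.26 to 13.69 in young arrays. Of 13 neuronal markers 0 passed and 2 were lower at an unadjusted p under 0.05, with a median of -0.04 and sums from 17.25 to 17.48 in aged and from 17.23 to 17.50 in young arrays. Of 10 astrocyte markers 0 passed and 2 were higher at an unadjusted p under 0.05, with a median of 0.18, and of 5 kept markers of inhibitory interneurons 0 passed and 1 was higher at that level, with a median of -0.02. The choroid plexus marker Ttr did not pass, and its log2 signal ran up to 14.57 on a mid-aged array. Their part in the members' differences was not tested.

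RNA quality was read through the 3′ to 5′ ratio of the Gapdh control probe sets. Its log2 ran from -0.31 to 0.81 in aged arrays and from -0.47 to 0.37 in young arrays, and the means differed by 0.10 (two-sided exact permutation p = 0.498; 0.597 adjusted over 6 such tests). The percentage of probe sets called present was 2.15 points higher in aged than in young arrays (two-sided exact permutation p = 0.0391; 0.192 adjusted over the 6).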

How the data were processed

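The deposited files hold, per the file headers, the Signal intensity and a detection call (present, marginal or absent) for each probe set of one array; the software version and scaling target are not given in the sources used here. The authors' series table, also intensity values, served as an alternative. In 1 file, 1 extra column that carries the name of a further array was not used. Arrays were rescaled to a common trimmed mean (2% off each end, factors 0.999 to 1.00), floored at 161, taken to log2 and filtered at present calls on 9 of 29 arrays. limma 3.58.1 (R 4.3.3) fitted age over all 29 arrays without covariates; Python 3.11.15 did the rest. The number of arrays limits the precision.

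The members, lists and tests were chosen with earlier results of these data known. Named members are the 4 with the smallest p in each direction and contrast, the smallest F test p of each complex, genes with several kept probe sets, isoform pairs and, per related list, the gene with the smallest p; for a list, each gene was read through the brightest of its kept probe sets. Other members named in the text were chosen after their values were seen. In simulated data, 200 of 3861 probe sets were changed between aged and young. Of 1.25-fold changes 22% were recovered, of 1.5-fold 79% and of 2-fold 96.4%. The simulated noise was normal and independent for each probe set and array, without header style or outlying arrays. Recovery in the real arrays may therefore differ. Alternatives covered scaling, floor, filter, intensity trend, array weights, header style, the Gapdh ratio, a replicate block, the authors' table, the 2 groups alone, and leaving out arrays. Promoters came from RefSeq (GRCr8), matched by symbol.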

Additional observations from a re-analysis of the deposited data

Results flagged for a closer look

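Of 168 age groups of named members examined, 8 (4.76%) held an array whose distance from its nearest neighbour exceeded Dixon's 95% critical value for the group's range, and chance alone gives about 1 in 20. Mid-aged replicate 8 had the lowest Ndufa4 value, a log2 signal of 13.14 with the next at 13.44, and the lowest Ndufa6 value, 12.15 with the next at 12.45. Mid-aged replicate 5 had the lowest Ndufb8 value, 13.31 with the next at 13.73. Aged replicate 5 had the lowest Cyc1 value, 12.24 with the next at 13.05, and the lowest Cox7a2l value, 11.28 with the next at 12.51. Aged replicate 6 had the lowest Ndufc1 value, 12.54 with the next at 12.74, and aged replicate 2 the highest Ndufaf3 value, 9.56 with the next at 8.68. Young replicate 4 had the lowest Cox6b1 value, 11.99 with the next at 12.33.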

How the results depend on the processing

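Over all 29 arrays, 64 probe sets passed between aged and young, 16 between mid-aged and young, 2 between aged and mid-aged and 51 in the F test over ages, with 0 members in each (limma; 13, 6, 6 and 7 members at an unadjusted p under 0.05). With array weights the counts over all probe sets were 326 between aged and young, 87 between mid-aged and young and 210 in the F test, and those over members 11, 1 and 7. With the Gapdh ratio as a covariate 98 probe sets and 2 members passed between aged and young, 0 probe sets between aged and mid-aged, and 1 member in the F test. Without the 6 least correlated arrays the counts were 131 with 3 members between aged and young, 63 with 1 member between mid-aged and young, 0 between aged and mid-aged, and 89 with 2 members in the F test. The longer header style alone gave 16 between aged and young, 0 between mid-aged and young and 10 in the F test, from fewer arrays. The shorter style alone, chosen after seeing the data, gave 1 member between mid-aged and young. Style as a term gave 1 member between aged and young, and so did the floor at the 75th percentile of absent signals. The authors' table gave 8 between mid-aged and young and 0 between aged and mid-aged, where the fit without the filter and that of the 2 groups alone also gave 0. The cause was not tested.

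Leaving out 1 array at a time gave 52 to 84 probe sets and 0 to 2 members between aged and young, 8 to 22 and 0 between mid-aged and young, 0 to 4 and 0 between aged and mid-aged, and 39 to 56 and 0 to 1 in the F test. The median over the members then ran from -0.08 to -0.05 between aged and young, from -0.08 to -0.04 between mid-aged and young and from -0.04 to 0.007 between aged and mid-aged. In complex I, 28 to 32 of 35 probe sets were below 0 between aged and young. The medians of complexes IV and V changed sign between settings, from -0.05 to 0.05 and from -0.06 to 0.03 over the alternatives other than leaving out 1 array at a time.

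With the replicate number as a block, 77 probe sets passed between aged and young, 13 between mid-aged and young, 2 between aged and mid-aged and 53 in the F test, with 0 members in each. Deviations of arrays with the same number correlated from -0.20 to 0.58. The medians were 0.09 for aged with mid-aged, 0.08 for aged with young and 0.09 for mid-aged with young. An array correlated best with its own number in 10 of 56 comparisons. These values do not settle whether the numbers are pairs, and apart from this block they were not taken as such. The number of arrays and the 7 kept members not called present on all arrays limit the precision.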
